A study of Mus musculus with 2 samples.

Results

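The Clcn5 intron microRNA cluster is a run of 5 microRNA precursors, Mir532, Mir188, Mir362, Mir501 and Mir500, on the X chromosome of the mouse. The members were the tabulated genes that the GENCODE annotation gives these names, and they are 5 of 1973 tabulated precursors. Their levels in the lung of mouse embryos at embryonic day 15.5 are described. The 2 small RNA libraries form 1 group, whole lung of strain B6NCrl, with embryos of mixed sex pooled and no treatment or genotype contrast. Replicate 1 was made from 78 embryos and replicate 2 from 62. The labels number them as biological replicates but give both the same donor identifier. Their spread can hold differences between embryos as well as pooling, dissection and library preparation, and these cannot be told apart. No comparison between conditions can be made, and the comparisons are between precursors within these libraries.

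A microRNA that lies in an intron is usually transcribed as part of its host gene. The nuclear enzyme Drosha cuts the hairpin out of the transcript, and Dicer then trims it to a short duplex, of which either arm can be loaded into an Argonaute protein. The loaded arm finds target messages mainly through its seed, the bases after the first one at its 5′ end. Clcn5, the host gene here, encodes ClC-5, an endosomal exchanger of chloride and protons best known from the kidney proximal tubule.

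The 5 hairpins are shown because their arms carry the likeness among the members and because each gene count sums the reads of both arms. They come from RefSeq on GRCm38.p6, the assembly that mm10 denotes, and all 5 members matched there and had the same sequence and position in GENCODE. All lie on the minus strand. Each is written 5′ to 3′ in the order of the host transcript, with the mature products listed by RefSeq in capitals.
Mir532, chrX:7248402-7248497: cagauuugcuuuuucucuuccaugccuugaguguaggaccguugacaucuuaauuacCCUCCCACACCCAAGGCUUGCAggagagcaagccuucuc
Mir188, chrX:7247989-7248056: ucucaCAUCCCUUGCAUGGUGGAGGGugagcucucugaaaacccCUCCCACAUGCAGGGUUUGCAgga
Mir362, chrX:7241982-7242046: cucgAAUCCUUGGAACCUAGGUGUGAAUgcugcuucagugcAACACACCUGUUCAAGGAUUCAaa
Mir501, chrX:7241243-7241351: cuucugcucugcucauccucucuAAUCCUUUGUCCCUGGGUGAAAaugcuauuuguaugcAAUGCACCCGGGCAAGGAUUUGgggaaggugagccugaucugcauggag
Mir500, chrX:7237683-7237774: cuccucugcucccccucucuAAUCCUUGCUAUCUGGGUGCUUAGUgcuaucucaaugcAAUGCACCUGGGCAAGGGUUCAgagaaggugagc
The table lists both arms for Mir188, Mir362, Mir501 and Mir500, and only the 3p arm for Mir532. A 5p product of Mir532 is thus left out of the seed comparisons, though the gene count of Mir532 would include its reads.

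The mature products are shown next with the seed (bases 2 to 8) in capitals, first those of Mir362, Mir501 and Mir500.
miR-362-5p: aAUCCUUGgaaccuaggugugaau
miR-500-5p: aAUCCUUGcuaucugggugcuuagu
miR-501-5p: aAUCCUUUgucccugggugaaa
miR-501-3p: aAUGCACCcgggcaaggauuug
miR-500-3p: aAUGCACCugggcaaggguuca
miR-362-3p: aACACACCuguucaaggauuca
The 5p arms of Mir362 and Mir500 had the same seed, AUCCUUG, and that of Mir501 had AUCCUUU, which keeps 6 of the 7 seed bases. The 3p arms of Mir501 and Mir500 also had the same seed, AUGCACC, and matched at 18 of 22 positions. Counted from the 5′ end of miR-501-3p, with its base written first, the differences were C9U, A18G, U21C and G22A. The 3p arm of Mir362 matched either of them at 5 of 7 seed positions.

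The products of Mir188 and Mir532, the first members of the transcript, follow.
miR-188-5p: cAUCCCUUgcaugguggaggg
miR-188-3p: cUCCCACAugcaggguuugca
miR-532-3p: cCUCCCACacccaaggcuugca
The 3p arms shared a run of 8 bases, CUCCCACA, which starts at base 1 of miR-188-3p and at base 2 of miR-532-3p. Their seeds are thus shifted by 1 base against each other and differ as 7-base words. The 5p arm of Mir188 was also like the 5p arms shown before it, with 6 of 7 seed bases the same as in miR-501-5p and 5 of 7 as in miR-362-5p and miR-500-5p. Among the 1738 mature sequences in the table, no other had the seed of miR-532-3p, miR-188-3p or miR-501-5p. The seed of miR-362-3p, ACACACC, was found once more, in miR-329-3p, and that of miR-188-5p once more, in miR-7061-3p.

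All 5 precursors lie in a single intron of Clcn5 (ENSMUSG00000004317.14, chrX:7153810-7319358, minus strand), on the strand of the host. That intron, chrX:7213011-7316658, is 103648 bp long, and GENCODE lists no tabulated precursor inside Clcn5 other than these 5. The annotation has 5 transcripts of Clcn5. Only 3 of them, Clcn5-202, Clcn5-203 and Clcn5-204, span the precursors, whereas Clcn5-201 and Clcn5-205 begin downstream of the whole cluster. Clcn5 messenger RNA was not measured in these small RNA libraries. Mir532 starts 68161 bp into the intron and is followed after 345 bp by Mir188. Then comes a gap of 5942 bp, the widest in the cluster, to Mir362, with Mir501 630 bp behind it and Mir500 another 3468 bp on. From end to end the cluster covers 10815 bp.

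**Figure D1:**
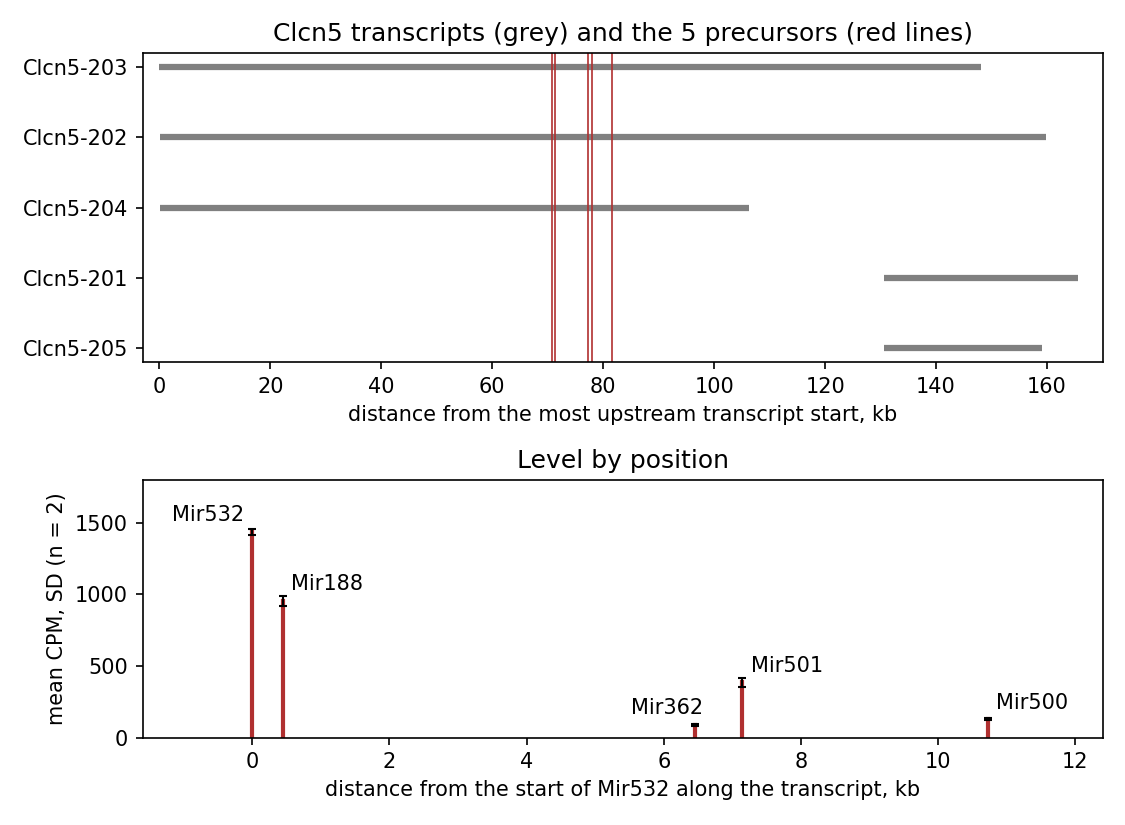
Upper panel: the extent of each annotated Clcn5 transcript (grey bars) and the 5 precursors (red lines) by distance in kb from the most upstream transcript start. Lower panel: mean CPM of each precursor (height, with SD over 2 replicates) by distance in kb from the start of Mir532; Mir532 and Mir188, 345 bp apart, stand far above Mir362, Mir501 and Mir500.

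Replicate 1 held 5354530 reads counted on the annotated strand of a precursor and replicate 2 held 6489390. Levels are given as CPM, counts per 1000000 such reads, and the floor of 3 counts equals 0.560 and 0.462 CPM. Counting intervals and floors cover counting error only, since the sources used here record no molecular identifiers. Of the marker genes for lung tissue, the endothelial Mir126a stood at 68906 and 67001 CPM and the 5 epithelial miR-200 genes together at 31937 and 31476 CPM. The 3 genes listed for smooth muscle and mesenchyme, Mir145a, Mir199b and Mir214, summed to 6958 and 7291 CPM. Mir143, the neighbour of Mir145a, was not on that list and had a mean of 79294 ± 3771 CPM. The sums thus depend on which genes were listed and do not rank the tissues. Markers of other tissues summed to between 94.3 and 1237 CPM, over the erythroid, leukocyte, liver, striated muscle, neural and kidney or gut lists. The kidney or gut list was the lowest of them, at 94.3 and 99.5 CPM with 2 of 3 genes detected. Neural Mir124a-1, Mir124a-2 and Mir9-2 had 0 counts, and their reads may map to several places.

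All 5 members were detected, meaning at least 10 counts in both libraries, beside 18.1% of all tabulated precursors (357 of 1973). Of the 120 precursors on the X chromosome 31.7% were detected, and of the 854 inside a protein-coding gene on its strand 171 were. Together the members had 16422 counts in replicate 1 and 18993 in replicate 2. That is 3067 and 2927 CPM, or 0.300% ± 0.00991 of the counts of a library (SD, n = 2). They made up 2.51% ± 0.0309 of the counts on the X chromosome and 0.682% ± 0.0244 of those in protein-coding hosts. No member had a read on the opposite strand in either library, as was the case for 89.6% of detected genes.

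Mir532, the first hairpin of the cluster, was the most abundant member. It had 7782 counts in replicate 1 and 9234 in replicate 2, or 1453 and 1423 CPM (mean 1438 ± 21.5, SD, n = 2). It took 48.0% ± 0.870 of the cluster's reads and ranked 80th of all precursors and 8th of those on the X chromosome. Mir188, its close neighbour, followed with 5249 and 6037 counts, or 980 and 930 CPM (mean 955 ± 35.4). Its share of the cluster was 31.9% ± 0.126, so that these neighbours held most of the cluster's reads in both libraries. The lowest value of Mir532 lay above the highest of Mir188, and their levels did not overlap.

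Mir501, the fourth hairpin along the transcript, came next with 2177 and 2368 counts. Its level was 407 CPM in replicate 1 and 365 CPM in replicate 2 (mean 386 ± 29.5), which is 12.9% ± 0.558 of the cluster. Relative to the mean, it is the member whose CPM differed most between the pools, with a coefficient of variation of 7.64%. Mir500, the last hairpin, had 722 and 801 counts, or 135 and 123 CPM (mean 129 ± 8.07). Its share was 4.31% ± 0.127. Mir362 was the lowest member with 492 and 553 counts, or 91.9 and 85.2 CPM (mean 88.6 ± 4.72), a share of 2.95% ± 0.0597. Even this lowest level was far above the floor, and it ranked 193rd of all precursors, where Mir500 ranked 178th, Mir501 129th and Mir188 99th.

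**Figure D2:**
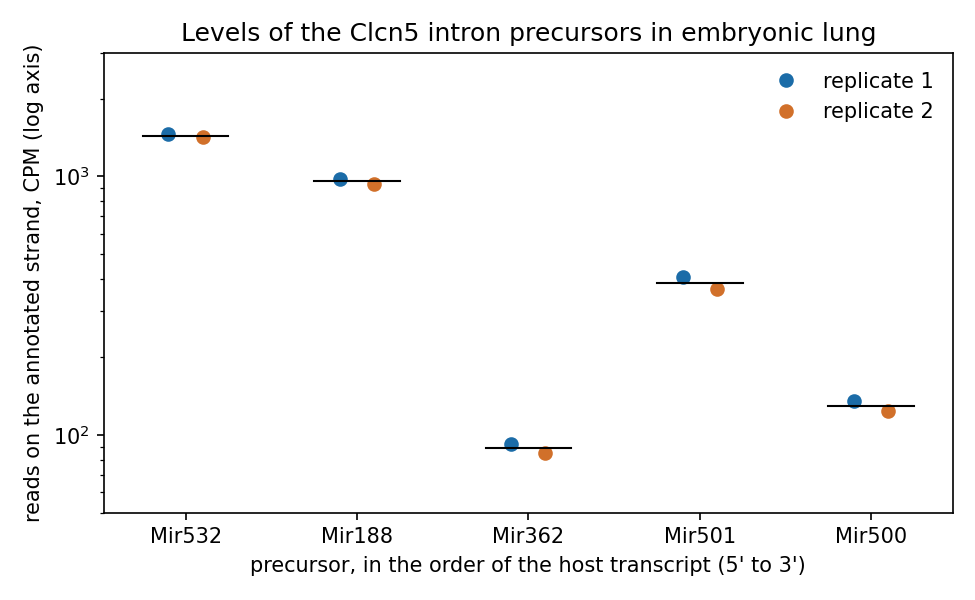
CPM of each precursor on a log axis, in the order of the host transcript, with 1 point per replicate and a black line at the mean. No 2 members overlap: Mir532 lies at 1453 and 1423 CPM and Mir362, the lowest, at 91.9 and 85.2 CPM.

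The order Mir532, Mir188, Mir501, Mir500, Mir362 was the same in both libraries, and for each of the 10 pairs of members the values of the 2 replicates did not overlap. The share of such pairs over all detected genes was not computed. The median detected gene differed by 1.10-fold between the pools, less than the 1.46-fold between the closest members. Non-overlap is therefore not read as a trait of the members. Mir532 exceeded Mir362 by 16.3-fold (log2 4.02 ± 0.0553, SD, n = 2). Within the close pair at the start, Mir532 exceeded Mir188 by 1.51-fold (log2 0.59 ± 0.0318). The ratio was 1.48 in replicate 1 (95% exact binomial interval 1.43 to 1.54) and 1.53 in replicate 2 (1.48 to 1.58). Mir188 exceeded Mir501 by 2.48-fold (log2 1.31 ± 0.0569), and Mir501 exceeded Mir500 by 2.99-fold (log2 1.58 ± 0.0201). The last neighbours in the order, Mir500 and Mir362, were 1.46-fold apart (log2 0.54 ± 0.0133), with intervals of 1.31 to 1.65 in replicate 1 and 1.30 to 1.62 in replicate 2.

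Along the transcript, the level dropped most across the widest gap. Mir188 exceeded Mir362, 5942 bp on, by 10.8-fold (log2 3.43 ± 0.0235). From Mir362 to Mir501, 630 bp on, the level rose by 4.35-fold (log2 2.12 ± 0.0334). Mir501 and Mir500, 3468 bp apart, differed by the 2.99-fold given above, and Mir532 and Mir188, 345 bp apart, by 1.51-fold. Without regard to direction, the fold between neighbours followed the order of these few gaps except for Mir501 and Mir500, which were closer in level than Mir501 and Mir362 across a wider gap. A relation of gap to level was not tested, and the gaps of other groups were not compared. In all 10 pairs the log2 ratio was larger than its SD, which was not set beside other pairs of genes. The exact permutation test, 2-sided and on CPM, gave p = 0.333 for each of the 10 pairs, also after Benjamini-Hochberg adjustment over them. That is the smallest p that 2 values against 2 allow, so no pair could pass 0.05. Since both members were counted in the same libraries, the within-library log2 ratios were also tested by flipping their signs, a paired exact test added after seeing the data. The exact sign-flip test gave p = 0.50 for each pair, again the smallest it can give with 2 libraries.

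Inserts were shorter than 30 nt, so that a read comes from 1 mature product and CPM was not divided by the length of the precursor. Per nucleotide of annotated precursor, an alternative chosen after seeing the data, the order held in both libraries. Mir532 and Mir188 then came to 1.07-fold of each other and Mir500 and Mir362 to 1.03-fold. The counting interval of the ratio of Mir500 to Mir362 on that scale, 0.917 to 1.14 in replicate 2, includes 1, so these were not distinguishable there. Mir501 and Mir362 stayed 2.60-fold apart, and Mir532 and Mir362 11.0-fold.

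Reads that fit more than 1 place in the genome are tallied apart in these tables and were treated as absent from the gene counts. The longest run that a member shared with any of 1894 annotated precursors was 14 nt, between Mir501 and Mir500. For Mir532, Mir188 and Mir362 it was 13, 12 and 11 nt. None reached the 20 nt of a nearly full read, which was the case for 78.7% of detected genes. How many mismatches the aligner allowed is not stated in the material used, and copies outside annotated precursors were not searched for.

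All 5 members were lower in replicate 2 than in replicate 1, beside 49.0% of detected genes. The differences were small, a log2 ratio of -0.03 for Mir532, -0.08 for Mir188, -0.11 for Mir362, -0.13 for Mir500 and -0.16 for Mir501. The 95% exact binomial interval of the ratio of replicate 2 over 1 excluded 1 for Mir188 (0.949, 0.914 to 0.985) and for Mir501 (0.898, 0.846 to 0.952). It included 1 for Mir532, Mir362 and Mir500. The sum of the members gave 0.954 (0.935 to 0.974). These intervals are for plain library totals and were not computed for other scalings. The upper limit for Mir188 lies close to 1, so its exclusion of 1 may not hold with them. The direction was the same for each member with TMM scaling and with DESeq2 size factors, where 44.0% and 45.9% of detected genes were lower in replicate 2. The differences were smaller with both. The log2 ratio of Mir188 was -0.050 with TMM and -0.059 with DESeq2 size factors, and that of Mir532 was -0.0046 and -0.014. The median member differed by 1.08-fold between the pools and the median detected gene by 1.10-fold. Among the 114 detected genes within the members' range of levels the median was 1.07-fold. Each pool was sequenced once, and no p was computed for this difference.

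**Figure D3:**
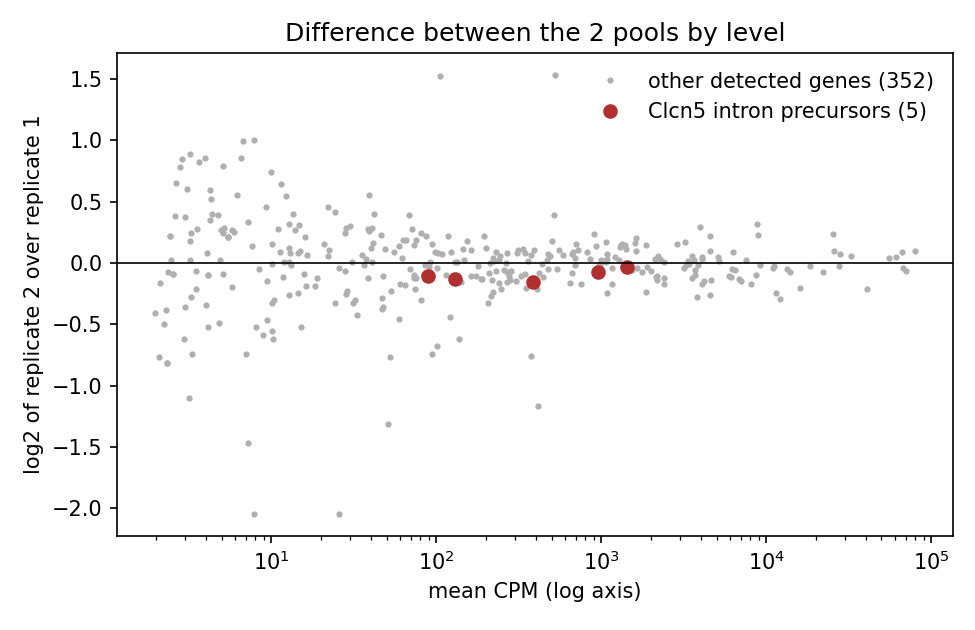
Log2 ratio of replicate 2 over replicate 1 (vertical axis) by mean CPM (log axis) for the detected genes, with the 5 members in red and the others in grey. The 5 members lie between -0.16 and -0.03, below 0 but within the spread of genes at their level.

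The members also kept close to each other between the pools. The span from the lowest to the highest of their log2 ratios was 0.13. Among the 15 groups of neighbouring precursors with 3 or more detected members, the median span was 0.33, and 2 groups had a smaller span than the Clcn5 cluster. A group was a run of same-strand precursors in which no gap was wider than 10000 bp, and a span also depends on the number of members and their counts.

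Taken without regard to the number of members, the cluster stood near the middle of such groups in how far its members spread in level. Of 41 groups with 2 or more detected members, 19 had a smaller fold from highest to lowest member than its 16.3-fold, and the median was 19.4-fold. Most of these groups had only 2 detected members, and the fold also depends on that number. Every group with more detected members than the Clcn5 cluster had a larger fold, from 109-fold (Mir106a over Mir19b-2) to 4883-fold (Mir322 over Mir450-2). In each of those the count of the lowest gene is uncertain, because part of its sequence recurs in a different precursor. With precursors that share at least 20 nt with another left out, 13 of 26 groups had a smaller fold than the Clcn5 cluster. The median was then 16.0-fold, just below that of the cluster. With gaps of at most 5000 bp the cluster splits at its widest gap. Mir188 and Mir532 then form a group with 1.51-fold between them and Mir362, Mir501 and Mir500 another with 4.35-fold, beside a median of 17.5-fold over 40 groups. Of those 40 groups, 3 had a smaller fold than the first and 12 a smaller fold than the second. The standing of the cluster thus depends on how groups are drawn.

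Of the groups inside 1 protein-coding host, 5 had 3 or more detected members, the Clcn5 cluster among them. The group in Mcm7, a gene of DNA replication, ran from Mir93 (8802 ± 1388 CPM) to Mir25 (439 ± 1.13 CPM), a 19.9-fold difference. The epithelial group in Ttll10 ran from Mir429 (13376 ± 314 CPM) to Mir200a (855 ± 14.6 CPM), or 15.6-fold. Both had highest members well above Mir532 in level and folds close to that of the Clcn5 cluster. The groups in Cdc20b (Mir449a at 8097 ± 671 CPM over Mir449b at 11.5 ± 3.58 CPM) and in Sfmbt2 (Mir467e at 1081 ± 39.6 CPM over Mir297a-2 at 3.20 ± 1.36 CPM) spread far more, 721-fold and 354-fold. In the Sfmbt2 group all 10 detected members share at least 20 nt with another precursor, so their counts are uncertain, whereas no Clcn5 member does. With 2 libraries these differences between groups were not tested.

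**Figure D4:**
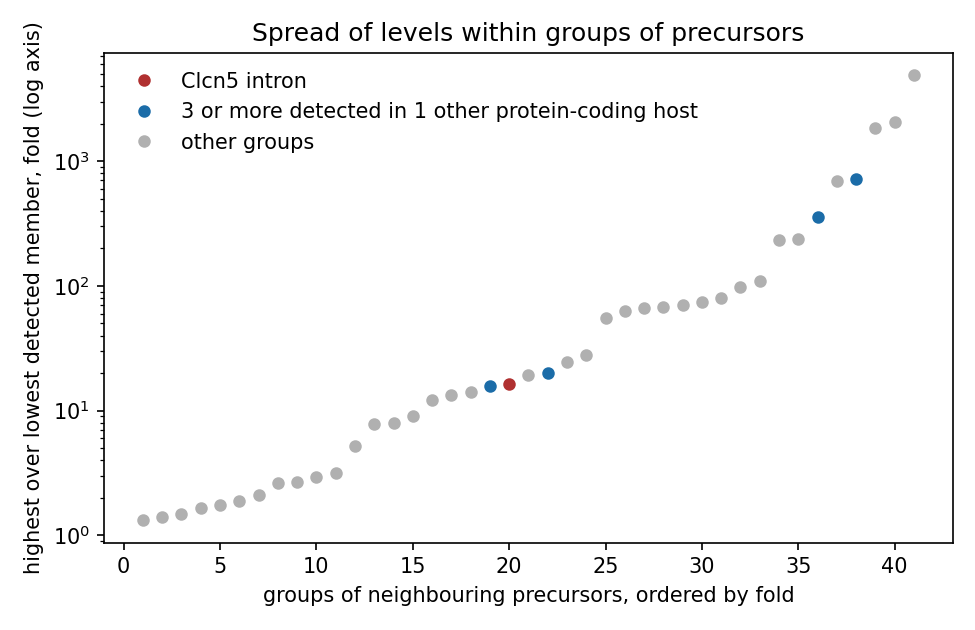
Fold from the highest to the lowest detected member (log axis) of the 41 groups of neighbouring precursors, ordered by fold. The Clcn5 cluster (red) stands at 16.3-fold, and 19 groups lie below it. Blue marks the other groups with 3 or more detected members in 1 protein-coding host, at 15.6-fold, 19.9-fold, 354-fold and 721-fold. All remaining groups are grey, also those with 2 detected members in a protein-coding host.

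The genes nearest to each member in mean CPM, over the 2 libraries, were taken from the detected genes outside the cluster. Mir532 lay between Mir708 (1443 ± 5.99 CPM) and Mir141 (1403 ± 79.8 CPM), a member of the epithelial miR-200 family. Mir188 lay between Mir154 (965 ± 8.88 CPM) and Mir135b (925 ± 64.0 CPM). Mir501 lay between Mir210 (388 ± 19.99 CPM), a microRNA known from the response to low oxygen, and Mir20b (375 ± 11.9 CPM), also on the X chromosome. Mir500 lay between Mir673 (129 ± 0.386 CPM) and Mir30b (123 ± 5.67 CPM), and Mir362 between Mir770 (90.4 ± 1.51 CPM) and Mir615 (86.5 ± 9.53 CPM). These genes were picked for their closeness in level, so that closeness is no result. Mir708 shares at least 20 nt with another precursor, so its count is uncertain.

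For the seeds shown above, the level of a seed cannot be summed exactly because the arms are not counted apart. The genes that carry the 5p seed AUCCUUG, Mir362 and Mir500, were the lowest members. Of those with the 3p seed AUGCACC, Mir501 and Mir500, Mir501 had the larger count in both libraries. Mir329, the gene outside the cluster whose 3p arm has the seed of miR-362-3p, stood at 212 and 212 CPM (mean 212 ± 0.289), above Mir362 in both libraries and with no overlap.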

How the data were processed

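Small RNA of 2 libraries from whole embryonic lung was used. The authors deposited unnormalized counts of reads for each microRNA gene, on mm10 and annotation M4, per the readme files. The aligner, the counter and how they were set are not stated there or in the labels. Each table had 3 columns of counts, taken from their sums to be both strands, the annotated strand and the opposite strand. Its 4 summary lines stayed out of library sizes. Reads mapped to several places were 31.4% and 30.6% of all reads. A gene is a precursor, so arms were not separated.

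CPM was computed from counts on the annotated strand, 5354530 and 6489390 reads. Names, positions and hosts came from GENCODE M21 on GRCm38, which matched 1894 of 1973 identifiers without the version suffix, and printed sequences from RefSeq. Means and SDs are over 2 replicates, which the labels number within 1 group. Members were compared by log2 ratios within a library and an exact permutation test, and counting intervals are exact (Clopper-Pearson) at 95%. Detection needed 10 or more counts in each library. Named genes were the members, markers and the detected genes next above and below each member in mean CPM. The highest and lowest of each group with 3 or more detected members in 1 protein-coding host were also named. Mir329 and Mir143 were named after their values were seen. The members and lists were chosen with earlier results of these data known. The replicates differed far beyond sampling noise (chi-square over degrees of freedom 60.5 over 378 genes) and were counted as 2. Alternatives were TMM scaling (edgeR 4.0.16), DESeq2 1.42.0 size factors, the most abundant gene left out of the total, each replicate alone, counts over both strands, other minimum counts and other gaps; division by precursor length was added after seeing the data. Ratios were tested on simulated data. Python 3.11.15, scipy 1.17.1, RNAfold 2.7.2 and R 4.3.3 were used.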

Additional observations from a re-analysis of the deposited data

How the results depend on the processing

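The order of the 10 pairs of members was the same in each replicate alone and after division by precursor length. Counts over both strands give the same ratios by construction, since no member had a read on the opposite strand. The log2 ratio of Mir532 over Mir362 was 4.02 and fell to 3.46 per nucleotide of precursor. The summed CPM of the members, 2997, was 3255 with the most abundant gene left out of the total, which lowers the total by construction. It moved by less than 1 SD with TMM, DESeq2 size factors and counts over both strands, and was 3067 and 2927 in replicates 1 and 2. The count of 5 detected members was the same with a minimum of 1 or 100 counts. The log2 ratio of replicate 2 over 1 of the sum lay between -0.07 and -0.04 in all scalings tried. The median fold of groups lay between 16.0 and 19.4. With 2 replicates the SDs are themselves imprecise, and reads mapped to several places could not be assigned.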

Other observations

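The folded hairpins of the members differed in predicted stability, with no cause or effect tested. RNAfold gave a minimum free energy of -46.9 kcal/mol for Mir501 and -41.9 kcal/mol for Mir500, 2 of the members with like seeds. It gave -33.2 kcal/mol for Mir532, -28.8 kcal/mol for Mir188 and -28.5 kcal/mol for Mir362. Per nucleotide the members' median was -0.430 kcal/mol, beside -0.435 kcal/mol over the 309 detected precursors with a hairpin in the RefSeq table. On that scale Mir532, the most abundant member, was the least stable of the 5 at -0.346 kcal/mol, and Mir500 the most stable at -0.455 kcal/mol. Base composition was close too, with a median GC content of 50.5% in the members and 50.5% in those precursors. These values depend on how many flanking bases the annotation includes.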
